A study of Homo sapiens with 2 samples.

Results

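The genes described here are the receptors EGFR, ERBB2, ERBB3 and MET and the ligands AREG, EREG, HBEGF, TGFA, EPGN and BTC. They were chosen by gene name, and each of the 10 had a single entry among the 50867 gene rows of the deposited table. RNA was sequenced from 2 cultures of HCT116, an established human colorectal carcinoma line: 1 transfected with an siRNA against PHF5A and 1 with a control siRNA. PHF5A is a subunit of SF3b, the splicing factor that recognises the intron branch point. The labels give neither the siRNA sequence nor the time after transfection, and effects of the siRNA on other transcripts cannot be told apart from those of PHF5A loss. With 1 library per group no difference below has a replicate check, and no test across samples was possible. Intervals are 95% exact ones for counting error alone.

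EGFR and its relatives are cell-surface tyrosine kinases that pair with each other when a ligand binds. ERBB2 binds no known ligand and acts as a preferred partner, while ERBB3 has a weak kinase and signals through its partners. The ligands are made as membrane-bound precursors, and proteases of the ADAM family cut them loose. Receptor activity passes through adaptors and RAS to the kinases MEK and ERK. In colorectal carcinoma, AREG and EREG are the ligands best known as markers of response to antibodies against EGFR. MET, the receptor of hepatocyte growth factor, belongs to another receptor family and shares the downstream pathway.

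PHF5A itself had 91 counts and 2.31 FPKM (fragments per kilobase of gene, scaled to the library size) in the knockdown library, against 367 counts and 9.07 FPKM in the control library. The libraries held 25897412 counts (knockdown) and 26552789 counts (control). The abundant small RNAs 7SL, 7SK, RPPH1 and RMRP took 24.3% of the knockdown counts and 16.2% of the control counts, which lowers the level of every other gene on a scale set by the total. The libraries also differed in content. All 18 heart muscle markers examined were lower in the knockdown library, 17 of them at least 2-fold, with 341 counts in sum against 100705 in the control library (0.00132% and 0.379% of the total). Their FPKM ran from 0 to 2.26 in the knockdown library and from 2.31 to 68.0 in the control library. MYH7, MYH6, NPPA and PLN were among the 9 of these markers at 0 in the knockdown library. Genes that reached 1 FPKM in either library are called expressed here. Of 12 colorectal epithelial markers 8 were expressed, and their median log2 ratio of knockdown to control, with 1 added to each FPKM, was -0.04. EPCAM had 4.52 FPKM in the knockdown library and 3.62 FPKM in the control library, while the intestinal transcription factor CDX2 had 367 counts against 822 and was 2.18-fold lower by CPM. VIL1, CDX1, KRT20 and LGALS4 had at most 2 counts in either library. Of the 9 fibroblast and vessel markers 2 were expressed, of which 1 was at least 2-fold lower (COL3A1, 31 against 959 counts). COL1A1, the other, had 786 against 1362 counts. Among those under 1 FPKM, COL1A2 had 7 against 352 counts, LUM 0 against 60, VWF 141 against 284 and CDH5 0 against 10. DCN (9 against 8), PDGFRB (42 against 44) and PECAM1 (4 against 4) differed little. Of the 6 blood cell markers, CD68 alone reached 1 FPKM. Over all 8957 expressed genes the median of that log2 ratio was -0.15, with 227 genes higher by 2-fold or more and 555 lower by as much. The split was 345 and 358 of the same 8957 genes after centring on the median. The other scalings also changed which genes reached 1 FPKM. Upper-quartile scaling gave 353 and 412 of 9180 genes, and leaving the small RNAs out of the totals gave 377 and 513 of 9852. With totals of protein-coding genes the split was 405 and 530 of 10130. Rescaling to TPM (each library brought to an equal sum over genes) gave 107 and 1405 of 9664 genes, with a median of -0.47. Ratios of the expressed members are therefore also given relative to the median of -0.15.

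Because AREG and EREG are neighbours and were both higher in the knockdown library, and EGFR was lower, the DNA before their start sites is shown, with that of HBEGF, another ligand that was higher. Each line gives the 250 bases before the RefSeq start site on GRCh38.p14, 5′ to 3′ on the gene's strand. Capitals mark the TATA box TATAAA (searched on the gene's strand), the cyclic AMP response element TGACGTCA, the AP-1 site TGANTCA, the GC box GGGCGG and the CCAAT box (these on both strands). Adjoining capitals can hold overlapping matches.
AREG, chr4:74444886-74445135, plus strand: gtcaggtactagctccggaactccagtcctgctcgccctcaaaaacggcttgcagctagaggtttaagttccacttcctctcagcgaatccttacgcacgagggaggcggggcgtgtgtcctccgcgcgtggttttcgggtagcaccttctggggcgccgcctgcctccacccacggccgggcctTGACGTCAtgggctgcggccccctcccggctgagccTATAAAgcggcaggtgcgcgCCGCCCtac
EREG, chr4:74364895-74365144, plus strand: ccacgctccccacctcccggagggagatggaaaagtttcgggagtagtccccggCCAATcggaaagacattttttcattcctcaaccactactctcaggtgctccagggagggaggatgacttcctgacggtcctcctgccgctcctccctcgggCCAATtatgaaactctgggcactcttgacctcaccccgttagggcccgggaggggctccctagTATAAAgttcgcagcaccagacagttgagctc
HBEGF, chr5:140346604-140346853, minus strand: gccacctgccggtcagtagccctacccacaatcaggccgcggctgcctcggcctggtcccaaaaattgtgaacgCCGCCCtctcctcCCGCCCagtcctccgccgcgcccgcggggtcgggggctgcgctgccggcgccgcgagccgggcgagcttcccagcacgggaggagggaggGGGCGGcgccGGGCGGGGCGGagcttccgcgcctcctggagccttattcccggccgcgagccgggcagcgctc
EGFR, chr7:55018767-55019016, plus strand: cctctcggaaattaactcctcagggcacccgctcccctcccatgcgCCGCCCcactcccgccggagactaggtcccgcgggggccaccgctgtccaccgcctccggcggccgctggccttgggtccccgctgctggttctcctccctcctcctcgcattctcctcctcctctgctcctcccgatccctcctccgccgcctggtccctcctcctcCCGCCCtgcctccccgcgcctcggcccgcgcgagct

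AREG and EREG each held a TATA box, beginning 29 and 32 bases from the downstream end of the window, and so did the undetected neighbour EPGN at 29. TATAAA stood in 6.80% of 35116 RefSeq promoter windows of equal length. The AREG window held TGACGTCA, a motif found in 1.65% of windows, and EREG held 2 CCAAT boxes, a motif present in 32.0%. The HBEGF and EGFR windows held no TATAAA in these letters but 5 and 2 GC boxes, a motif of 42.6% of windows, of which AREG held 1, MET 2 and the first TGFA window 3. Their GC content was 76.4% and 73.6%, against 65.2% in AREG, 58.0% in EREG and a median of 58% over all windows. A second EGFR start site in the table, at chr7:55109589-55109838, held 2 AP-1 sites and 2 TATA boxes; TGANTCA stood in 6.57% of windows. Promoter sequence was found for 9 of the 10 genes, ERBB3 being the other. These matches describe letters and not binding.

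The receptors went in different directions. EGFR (ENSG00000146648, chromosome 7, 55019021 to 55256620, GRCh38) had 1120 counts and 2.48 FPKM in the knockdown library, against 2848 counts and 6.15 FPKM in the control library. It was 2.48-fold lower by CPM (counts scaled to an equal library total), with an interval of 2.31 to 2.66. Its log2 ratio on the FPKM + 1 scale was -1.04, below that of all but 5.48% of expressed genes, and -0.89 relative to their median. ERBB3 (chromosome 12, 56079857 to 56103505) had 295 counts and 0.584 FPKM in the knockdown library, against 720 counts and 1.39 FPKM in the control library. By CPM it was 2.38-fold lower (2.08 to 2.74), while on the FPKM + 1 scale, which compresses low genes, its log2 ratio was -0.59, or -0.45 relative to the median of expressed genes. The ratio of EGFR to ERBB3 counts was 3.80 in the knockdown library and 3.96 in the control library, and the interval of its change (0.823 to 1.12) included 1.

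ERBB2 (chromosome 17, 39687914 to 39730426) had 7318 counts and 16.1 FPKM in the knockdown library, against 5990 counts and 12.8 FPKM in the control library. It was 1.25-fold higher by CPM (1.21 to 1.30), with a log2 ratio of 0.30 that turned to -0.09 after TPM rescaling. Relative to the median of expressed genes ERBB2 lay 0.45 above. MET (chromosome 7, 116672390 to 116798386) had 2003 counts and 7.48 FPKM in the knockdown library, against 2765 counts and 10.1 FPKM in the control library. MET was 1.35-fold lower (1.27 to 1.43), with a log2 ratio of -0.38, or -0.24 relative to the median of expressed genes.

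Ratios between genes of the same library do not depend on how the libraries are scaled. EGFR counts per ERBB2 count were 0.153 in the knockdown library and 0.475 in the control library, 3.11-fold lower (2.87 to 3.36). ERBB3 relative to ERBB2 was 2.98-fold lower (2.59 to 3.44), and MET relative to ERBB2 1.69-fold lower (1.58 to 1.80). EGFR therefore also lost ground to MET, by 1.84-fold (1.68 to 2.02). Of the summed FPKM of these receptors, ERBB2 held 60.4% in the knockdown library and 42.2% in the control library. EGFR held 9.31% and 20.2% in the same order, and MET 28.1% and 33.1%. The summed counts were 10736 in the knockdown library and 12323 in the control library, a ratio of CPM of 0.893 (0.870 to 0.917), close to the median of 0.872 over expressed genes.

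**Figure D1:**
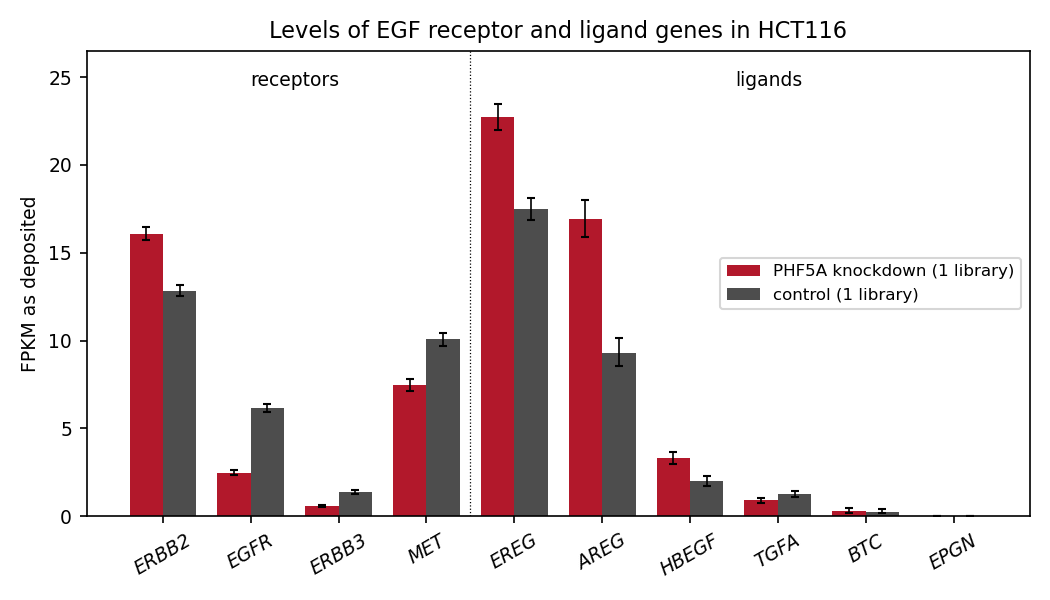
FPKM as deposited for the 4 receptor and 6 ligand genes, PHF5A knockdown library left of the control library in each pair; error bars are 95% exact Poisson intervals for counting error, with 1 library per group. EGFR and ERBB3 bars are lower in the knockdown library, AREG, EREG and HBEGF bars are higher, and EPGN is at 0 in both.

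The ligands with the highest levels were both higher in the knockdown library as deposited. EREG (epiregulin, ENSG00000124882, chromosome 4, 74365143 to 74388751) had 3779 counts and 22.7 FPKM in the knockdown library, against 2977 counts and 17.5 FPKM in the control library. Its CPM was 1.30-fold higher (1.24 to 1.37), and its log2 ratio of 0.36, or 0.51 relative to the median of expressed genes, turned to -0.04 after TPM rescaling. AREG (amphiregulin, ENSG00000109321, chromosome 4, 74445134 to 74455009) had 965 counts and 16.9 FPKM in the knockdown library, against 544 counts and 9.30 FPKM in the control library. AREG was 1.82-fold higher (1.64 to 2.02), the largest CPM ratio of the 9 members with counts, and its log2 ratio of 0.80 exceeded that of 95.6% of expressed genes and lay 0.95 above their median. The log2 ratio of AREG stayed positive under every scaling tried, from 0.41 with TPM to 0.97. AREG gained on EREG by 1.40-fold (1.24 to 1.57) in counts.

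HBEGF (heparin-binding EGF, chromosome 5, 140332843 to 140346631), which binds EGFR and ERBB4, had 356 counts and 3.29 FPKM in the knockdown library, against 222 counts and 2.0 FPKM in the control library. It was 1.64-fold higher by CPM (1.39 to 1.95), with a log2 ratio of 0.52, or 0.66 above the median of expressed genes. TGFA, the EGFR ligand transforming growth factor alpha (chromosome 2, 70447280 to 70554193), had 169 counts and 0.906 FPKM in the knockdown library, against 243 counts and 1.27 FPKM in the control library. TGFA was 1.40-fold lower (1.15 to 1.72), and its log2 ratio of -0.25 lay only 0.10 under the median of expressed genes. HBEGF thus had 2.11 counts per TGFA count in the knockdown library and 0.914 in the control library, a 2.31-fold gain (1.77 to 3.01).

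The remaining ligands were scarce. BTC (betacellulin, chromosome 4, 74744759 to 74794686) had 24 counts and 0.298 FPKM in the knockdown library, against 22 counts and 0.266 FPKM in the control library, and the interval of its CPM ratio (0.601 to 2.09) was too wide to show a change of less than about 2-fold. EPGN (epigen, chromosome 4, 74308473 to 74315307) had 0 counts in either library, which allows up to 3 counts, or 0.116 CPM in the knockdown library and 0.113 CPM in the control library. EREG and AREG together held 89.8% of the summed ligand FPKM in the knockdown library and 88.3% in the control library. Within that sum AREG held 38.3% and 30.7% in the same order, and TGFA 2.05% and 4.19%. Summed over the 6 ligands, counts were 5293 in the knockdown library and 4008 in the control library, a CPM ratio of 1.35 (1.30 to 1.41).

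**Figure D2:**
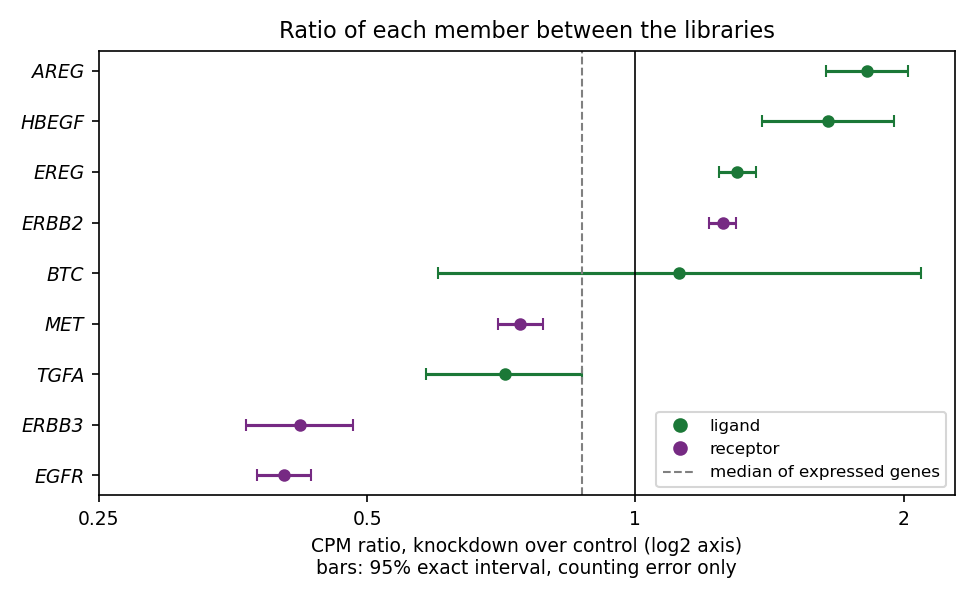
Ratio of CPM in the knockdown library to the control library (log2 axis) for the 9 members with counts; bars are 95% exact intervals for counting error. AREG, HBEGF, EREG and ERBB2 lie right of 1 with intervals that exclude it, MET, TGFA, ERBB3 and EGFR lie left of it, and the interval of BTC spans 1. The dashed line is the median of expressed genes, 0.872.

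**Figure D3:**
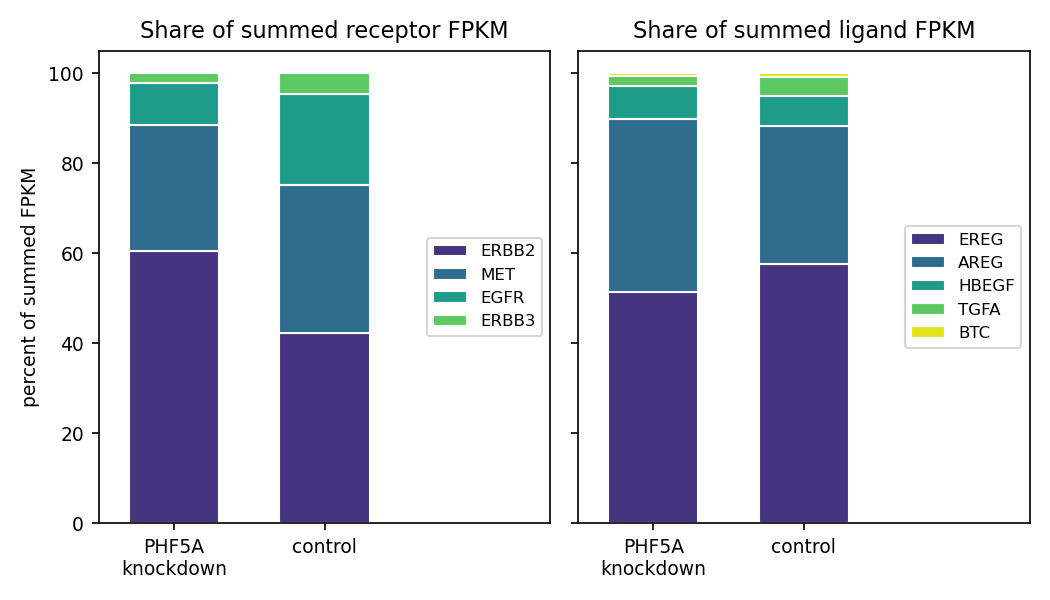
Composition of the summed FPKM of the receptors and of the ligands (percent), knockdown library left of the control library in each panel. The ERBB2 share is 60.4% in the knockdown library and 42.2% in the control library, and the EGFR share 9.31% and 20.2%.

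The ratio of the main ligands to EGFR differed more than any single member did. AREG counts per EGFR count were 0.862 in the knockdown library and 0.191 in the control library, a 4.51-fold gain (3.97 to 5.13) that no scaling of the libraries can alter. EREG gained 3.23-fold on EGFR (2.96 to 3.51). Scaling does not remove differences in content, and the part of the heart muscle transcripts of the control library in these ratios was not tested. Against ERBB2, AREG gained 1.45-fold (1.30 to 1.62), while EREG and ERBB2 kept nearly 1 ratio, with a change of 1.04 (0.979 to 1.10).

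Read against all expressed genes, few members passed the fold thresholds. At least 2-fold on the FPKM + 1 scale, 0 of the 8 expressed members were higher, where 2.53% of expressed genes were, and 1 (EGFR) was lower, where 6.2% were (either way 1 of 8, beside 8.73%). By CPM 2 of the 8 (EGFR and ERBB3) were at least 2-fold lower, beside 13.9% of expressed genes, and 0 at least 2-fold higher, beside 5.72%. At 1.5-fold by CPM 2 were higher (AREG and HBEGF), beside 13% of expressed genes, and 2 lower, beside 27.8%. The median log2 ratio was 0.03 over these 8 genes, -0.49 over the 4 receptors and 0.44 over the 4 expressed ligands, against -0.15 over expressed genes. The 2-fold call of EGFR on the FPKM + 1 scale rested on the scaling, since the log2 ratio was -0.89 after median centring, -0.91 after upper-quartile scaling, -0.96 without the small RNAs in the totals and -0.97 with totals of protein-coding genes, and -1.40 after TPM rescaling.

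**Figure D4:**
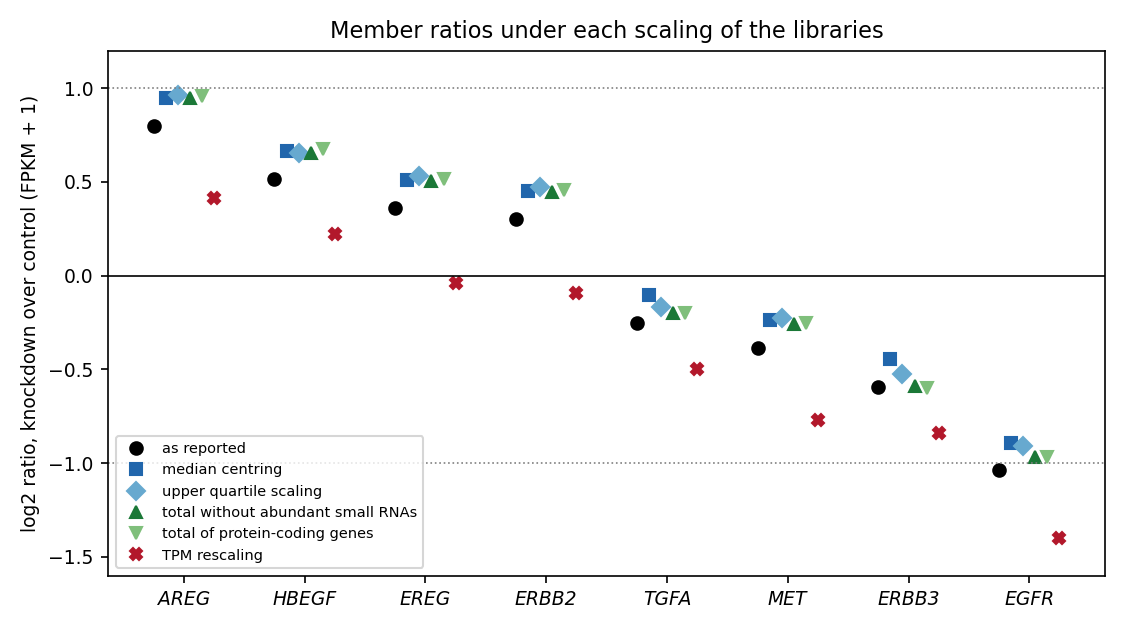
Log2 ratio of knockdown to control (FPKM + 1) of the 8 expressed members under 6 scalings of the libraries; dotted lines mark 2-fold. The order of the genes is the same under each scaling drawn, EREG and ERBB2 fall below 0 with TPM rescaling alone, and EGFR crosses the 2-fold line.

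Levels within a library were ordered EREG, AREG, ERBB2, MET, HBEGF, EGFR, TGFA, ERBB3 and BTC by FPKM in the knockdown library, with the counting intervals of AREG and ERBB2 overlapping. In the control library the order was EREG, ERBB2, MET, AREG, EGFR, HBEGF, ERBB3, TGFA and BTC, with overlapping intervals for MET and AREG and for ERBB3 and TGFA. HBEGF thus stood above EGFR in the knockdown library and below it in the control library. The order between genes depends on the length used. The deposited FPKM implies a length of 17437 bases for EGFR, 17558 for ERBB2 and 19518 for ERBB3, which is 1.78, 3.86 and 3.30 times the principal transcript of each gene in GENCODE release 29. For EREG the implied length was 1.39 times the transcript, for AREG 1.78 times and for TGFA 1.67 times. Per kilobase of that transcript ERBB2 had the highest level, at 62.2 FPKM in the knockdown library and 49.6 FPKM in the control library. EREG then had 31.6 and 24.3 FPKM in the same order, AREG 30.1 and 16.5, MET 11.7 and 15.7, and EGFR 4.40 and 10.9. On this length ERBB3 had 1.92 FPKM in the knockdown library and 4.58 FPKM in the control library, with a log2 ratio of -0.93.

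Gene structure separates the classes. The principal transcripts of the ligands have 5 or 6 exons and those of the receptors 21 to 28. Among expressed genes with a coding transcript, the median log2 ratio was -0.10 over 3256 genes of 1 to 7 exons and -0.26 over 1082 genes of 20 or more. In the class of 20 or more exons, 6.56% were 2-fold lower or beyond, and 0.185% 2-fold higher or beyond. In the class of 1 to 7 exons, which holds the ligands, these shares were 5.93% and 3.10%. The 3296 genes of 8 to 19 exons had a median of -0.18 and shares of 5.49% and 1.24%. EGFR and ERBB3 (28 exons each) and MET (21 exons) lay under the median of -0.26 and ERBB2 (27 exons) above it.

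EPGN, EREG, AREG and BTC lie in this order within 486 kilobases of chromosome 4, with 56.4 kilobases between the end of EREG and the start of AREG. Of the 6 entries from EPGN to BTC, EREG and AREG held nearly all counts. Apart from these ligands the stretch holds RP11-727M10.1, with 4 counts in the knockdown library and 0 in the control library, and AC142293.3, with 1 and 3. The entries that overlap EGFR, ERBB3 and TGFA had at most 3 counts. ERBB2 overlaps MIEN1 over 1931 bases, and MIEN1 had 1845 counts in the knockdown library against 3243 in the control library, the opposite direction to ERBB2. It also overlaps PGAP3 over 8884 bases, with 578 counts in the knockdown library and 615 in the control library. Since no source used here says how reads in these overlaps were assigned, the ERBB2 value carries that uncertainty.

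The remaining members of the ERBB family were below 1 FPKM. ERBB4, named here after its values were seen, had 0 counts in the knockdown library against 181 in the control library. EGF had 0 and 26 counts in the same order. Of the 18 heart muscle markers 17 were also at least 2-fold lower in the knockdown library, TNNI3 (229 against 334 counts) being the exception. The part of the heart muscle transcripts in the lower EGFR, ERBB3 and ERBB4 counts was not tested. Nor was it tested for the genes of the lists below that were lower in the knockdown library. The neuregulin genes NRG1 to NRG4 had at most 32 counts in either library.

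The pathway lists held 111 other genes, all called pathway genes here, of which 65 were expressed. They include 25 other receptor tyrosine kinases, of which 13 were expressed and 1 (DDR1) was at least 2-fold lower. Of the 65, 1 was higher by 2-fold or more and 4 were lower by as much, beside 2.53% and 6.2% of all expressed genes. The median log2 ratio of the 65 was -0.13, against -0.15 over all expressed genes. The median of 6 expressed genes of ligand shedding was 0.16. ADAM15, a membrane metalloprotease, had 15.5 FPKM in the knockdown library and 8.81 FPKM in the control library. TIMP3, an inhibitor of ADAM17, had 1.23 and 3.04 FPKM in the same order, a log2 ratio of -0.85. ADAM17, the main sheddase of AREG, EREG, HBEGF and TGFA, differed little, with 1.92 FPKM in the knockdown library, 1.65 FPKM in the control library and a CPM interval that included 1 (0.993 to 1.35). RHBDF1, a rhomboid-like partner of ADAM17, had a log2 ratio of 0.35, and ADAM9 had 0.18.

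Genes that restrain or remove the receptors had a median log2 ratio of -0.38 over 13 expressed members, of which 2 were at least 2-fold lower and 0 higher, beside 6.2% and 2.53% of all expressed genes. SH3KBP1, an endocytic adaptor of CBL also called CIN85, had 151 counts and 0.583 FPKM in the knockdown library, against 1009 counts and 3.80 FPKM in the control library. CBLC, a ubiquitin ligase of the CBL family, had 22.6 FPKM in the knockdown library and 50.7 FPKM in the control library, with a log2 ratio of -1.13. CBL, the ligase best known for tagging active EGFR, had 0.670 and 1.83 FPKM in the same order, 2.73-fold lower by CPM (interval of the ratio 0.317 to 0.421). The receptor phosphatase PTPRF had a log2 ratio of -0.77. After median centring 1 pathway gene in all was 2-fold lower.

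Further down the pathway single genes went both ways. The adaptor SHC1 had 30.6 FPKM in the knockdown library and 49.7 FPKM in the control library, while IRS1 had 9.46 and 5.60 FPKM. CRK (-0.47) and PTPN11 (0.20) were the next by size of log2 ratio, and the median of 8 expressed adaptor genes was -0.01. Among 9 expressed genes from RAS to ERK (median -0.19), HRAS had 40.1 FPKM in the knockdown library against 19 FPKM in the control library, and ARAF 10.7 against 24.7 FPKM. MAPK3, which encodes ERK1, had a log2 ratio of 0.51. HRAS was no longer 2-fold higher after TPM rescaling.

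PI3K and AKT genes had a median of 0.07 over 4 expressed members, with AKT1 at 0.42, PDPK1 at -0.17, PIK3R2 at 0.17 and AKT2 at -0.02. Of 10 genes used as readouts of ERK activity 8 were expressed, with a median of -0.17 and none past 2-fold on the FPKM + 1 scale. DUSP6, an ERK phosphatase, had 2.79 FPKM in the knockdown library against 1.29 FPKM in the control library, 2.16-fold higher by CPM. SPRY4, a Sprouty inhibitor of the pathway, had 3.48 against 7.0 FPKM, 2.01-fold lower by CPM. Past 2-fold by CPM, 1 of these 8 genes was thus higher and 1 lower, beside 5.72% and 13.9% of all expressed genes. CCND1 (cyclin D1) had 41.3 FPKM in the knockdown library against 63.4 FPKM in the control library. ETV5 had a log2 ratio of -0.41.

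For MET, the ligand gene HGF had 2 counts in the knockdown library and 3 in the control library. The protease ST14 (matriptase), which can activate that ligand, had 114 FPKM in the knockdown library and 93.0 FPKM in the control library. The inhibitors of such proteases went opposite ways, SPINT1 with 92.8 against 63.9 FPKM and SPINT2 with 17 against 25 FPKM. PLXNB1, a plexin that can associate with MET, had a log2 ratio of -0.43, and the median of the 4 expressed genes was -0.07.

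Among 17 expressed receptor tyrosine kinases, the 4 described here included, EGFR had the second lowest log2 ratio, after DDR1 (-1.08), a collagen receptor. ERBB3 was at rank 6, MET at rank 8 and ERBB2 at rank 15 from the lowest. FGFR1 (-0.76), AXL (-0.75) and RYK (-0.64) lay between EGFR and ERBB3. The 13 expressed kinases outside the members had a median of -0.34, with 1 at least 2-fold lower and 0 higher, beside the same 6.2% and 2.53% of all expressed genes. EGFR and ERBB3 were thus not alone among receptor kinases in lying below the median of expressed genes.

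**Figure D5:**
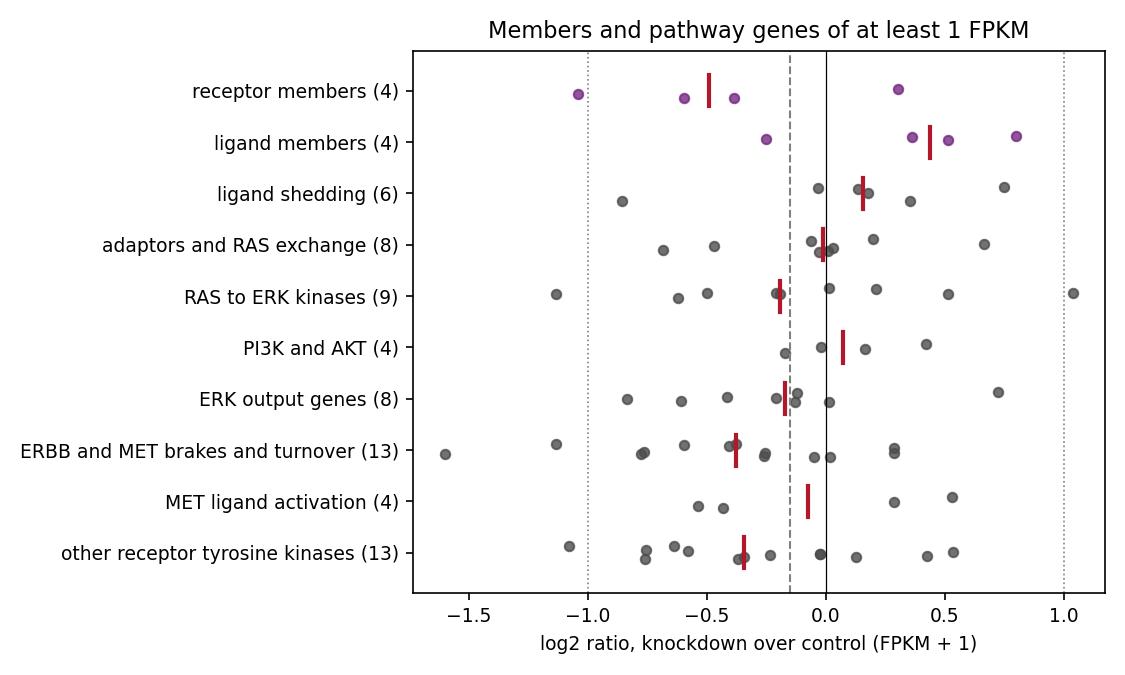
Log2 ratio of knockdown to control (FPKM + 1) of the expressed receptor and ligand members and of 8 pathway lists, 1 point per gene, with the number of expressed genes in brackets. Red bars are list medians (-0.49 for the receptors, 0.44 for the ligands), the dashed line is the median of expressed genes (-0.15) and dotted lines mark 2-fold.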

How the data were processed

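Total RNA from HCT116 cells transfected with siRNA was made into stranded libraries, per the labels' protocols, with 1 library per group. Per the submitters' processing notes, HISAT2 2.0.4 and Cuffdiff were run on hg38 (GRCh38). No annotation release, strand setting or rule for multiply matching reads was given in the sources used. The deposited table gives a count and an FPKM value for each gene and library, per the file headers. The deposited FPKM equals the count divided by 1 length per gene and by the library total, to within 0.0241% over 18898 genes. A gene entry broken over 2 lines was left out.

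Log2 ratios (knockdown over control) came from FPKM with a pseudocount of 1, and genes under 1 FPKM in both libraries were not counted as expressed. A change counted as called at 2-fold or more, by size alone. CPM ratios carry exact conditional binomial (Clopper-Pearson) intervals, ratios of 2 genes the exact conditional odds ratio interval, and levels exact Poisson ones. All cover counting error only and treat each count as independent. Reads are not independent molecules, so the intervals can be too narrow. Positions are those of the deposited table; transcripts and exons came from GENCODE release 29 by gene identifier, and promoters from RefSeq. The principal transcript is the longest coding one tagged as principal by APPRIS in that release, or else the longest.

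The members and all lists (pathway, epithelial, heart muscle, fibroblast and vessel, blood cell) were chosen with earlier results of these data known. Of each pathway list, the text names up to 4 expressed genes, those farthest from a log2 ratio of 0, and any past 2-fold; other genes are named for overlap, absence or role. A gene that this rule would name is not reported here. Alternatives were pseudocounts of 0.1 and 0.5, no filter, at least 5 FPKM, a threshold of 1.5-fold, a prior of 0.5 counts on CPM, and 5 scalings. Transcript length was added after the values were seen. The calls and intervals were tested on simulated data, with independent Poisson counts drawn from the profile of the control library. The intervals assume such counts, so that test cannot show how they hold between cultures. Software was scipy 1.17.1, pandas 2.3.3, matplotlib 3.10.9 and numpy 2.4.6 under Python 3.11.15. The table holds gene totals, so splicing was not analysed here.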

Additional observations from a re-analysis of the deposited data

How the results depend on the processing

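No paired analysis was possible because each group held a single library. Members at least 2-fold lower numbered 1 as reported, 2 with a pseudocount of 0.1, with CPM and at 1.5-fold, and 0 after median centring, upper-quartile scaling, or totals without small RNAs or of protein-coding genes alone. Members higher numbered 0 as reported and 1 at 1.5-fold. The median log2 ratio of expressed members was 0.03 as reported, 0.30 among genes of at least 5 FPKM, 0.17 after centring, 0.15 after upper-quartile scaling and -0.29 after TPM rescaling. Pathway genes at least 2-fold higher numbered 1 as reported, 2 with a pseudocount of 0.1 and with CPM, 0 with TPM and 4 at 1.5-fold. Those lower numbered 4 as reported, 8 with a pseudocount of 0.1, 1 after centring or upper-quartile scaling, 2 with totals without small RNAs or of protein-coding genes, 12 with TPM, 9 with CPM and 15 at 1.5-fold. Over all expressed genes, those higher and lower numbered 469 and 1129 of 8957 with a pseudocount of 0.1, and 131 and 309 of 4043 at 5 FPKM. With CPM they numbered 505 and 1241 of 8957, and at 1.5-fold 757 and 1631 of 8957. Reference transcript lengths, an alternative chosen after seeing the data, gave 308 and 887 of 11317. The same counts under the other scalings are given in the Results. Of 85 single-gene values under alternatives, 54 stayed close to the reported log2 ratio and 31 moved further. Close meant nearer than the distance from the middle to the end of the gene's log2 CPM interval. Leaving out the filter or asking for 5 FPKM cannot change a single-gene value, so those unchanged values count among the 54. ERBB2 and EREG alone among the 8 members changed sign, both with TPM rescaling. In these libraries that setting lowered the ratio of all 8 members. The median was -0.47 over the 9664 genes expressed on that scale, against -0.15 over 8957 as reported. Depth limits BTC, and variation between cultures is unmeasured for every member.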
